A study of Mus musculus with 6 samples.

Results

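Oxidative phosphorylation genes were measured in the RNA of mouse prostate luminal cells, the secretory cells lining the prostate glands. The members were chosen by gene symbol: nuclear genes named Ndufa, Ndufb, Ndufc, Ndufs or Ndufv with a number, Sdha to Sdhd, Uqcr, Cox4 to Cox8, Atp5, Cyc1 and Cycs. This gave 86 of the 24346 gene symbols in the tables. Of these, 35 belong to complex I, 4 to complex II, 9 to complex III, 18 to complex IV and 15 to complex V. Cycs is the electron carrier, and 4 genes with matching names (Ndufa4l2, Cox7a2l, Atp5s and Atp5sl) encode no structural subunit and were kept apart. Ndufa4 was counted with complex IV, where its protein sits, although its symbol names complex I. The 13 subunits encoded by mitochondrial DNA are not analysed here.

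The cells came from C57BL/6 mice aged 4 months. Transgenic animals, called CSF1 here, carried mouse Csf1 driven by the probasin promoter of the rat, an androgen-responsive promoter of the prostate epithelium. Wild-type (WT) animals were their littermates, so both groups share strain and age. Luminal cells were isolated by fluorescence-activated cell sorting; the sources used here do not give its gates. Each group had 3 libraries, and the titles number them 3, 5 and 8 in both groups. Nothing in the labels says that each library came from its own animal, so the p-values cover the spread among these libraries, which may be partly technical. Wherever 3 values are given for a group, they follow the order of replicates 3, 5 and 8.

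The 4 complexes of the respiratory chain and ATP synthase sit in the inner mitochondrial membrane. Complex I takes electrons from NADH and complex II takes them from succinate. Both pass them to ubiquinone, complex III hands them on to cytochrome c, and complex IV reduces oxygen. Complexes I, III and IV pump protons, and complex V (ATP synthase) uses the gradient to make ATP. Complex I has a small set of core subunits, which hold the redox centres and are conserved from bacteria, and a larger set of accessory subunits around them. Prostate luminal cells are known for exporting citrate, which leaves less of it for the mitochondrial cycle that feeds the chain.

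The labels held for the transgene, since Csf1 lay at 1.54 to 3.98 FPKM in WT and at 1082 to 1678 FPKM in CSF1. FPKM are fragments counted per kilobase of transcript and scaled to the size of the library. The luminal keratin gene Krt8 had FPKM of 1235, 1049.8 and 1721 in WT and 1429, 1408 and 2334 in CSF1, and Krt18 was detected in all 6 libraries as well. Markers of several other cell types were higher in CSF1, while the summed neuroendocrine markers overlapped (3.24 to 5.63 FPKM in WT and 1.61 to 7.93 FPKM in CSF1). The 12 tested macrophage markers were called higher, where 24.9% of all tested genes were, but 6 of the 12 had a WT mean under 1 FPKM and were tested only through their level in CSF1. The summed level of the macrophage list was 17.9 to 105 FPKM in WT and 684 to 2762 FPKM in CSF1, with CSF1 replicate 8 the highest. The 6 tested basal markers and the 8 tested fibroblast and smooth muscle markers were called higher too, and 1 and 5 of these were tested only through CSF1 in the same way. They had summed levels of 44.0 to 65.9 FPKM in WT and 536 to 844 FPKM in CSF1 for basal markers and 97.6 to 114 FPKM in WT and 503 to 746 FPKM in CSF1 for fibroblast and smooth muscle markers. Globin and other red blood cell genes summed to 529, 113 and 553 FPKM in WT and 723, 695 and 6712 FPKM in CSF1. CSF1 replicate 8 was by far the highest. The 5 that were tested did not pass without the replicate block, while Hba-a1 (0.0196), Hbb-b1 (0.0268) and Hbb-b2 (0.0229) passed with it by limma adjusted p. Hbb-bs, at 0 in WT, was tested only through CSF1 replicate 5 (26.1 FPKM). Endothelial markers summed to 1.08 to 2.52 FPKM in WT and 11.6 to 14.9 FPKM in CSF1, and lymphocyte markers to 0.394 to 0.847 FPKM in WT and 5.69 to 19.9 FPKM in CSF1. The luminal markers summed to 10418 to 29663 FPKM in WT and 8147 to 16638 FPKM in CSF1, with 2 of 9 higher and 1 lower. The part of these cells in the results below was not tested. In sorted bulk RNA, a lower share of cells that express a gene and less RNA per cell cannot be told apart.

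With FPKM as deposited, most oxidative phosphorylation genes did not pass the test, in libraries where a large part of all genes did. Of the 86 members, 79 had a mean of at least 1 FPKM and were tested. By limma on log2(FPKM + 1), adjusted over all 10951 tested genes, 4 members were higher in CSF1 (Ndufc2, Uqcr10, Cox7a1 and Cox6b2), 4 were lower (Ndufv3, Ndufa1, Ndufb9 and Ndufb3) and 71 did not pass an adjusted p of 0.05. Cox6b2, with a WT mean of 0.644 FPKM, was tested only through its level in CSF1, so it had to differ. Among all tested genes, 32.4% were called, 24.9% higher and 7.47% lower, beside 10.1% of the tested members in either direction. This gap was smaller or absent under other scalings. With quantile normalization 27.8% of members were called, beside 37.0% of all tested genes. With median-ratio scaling it was 35.4% beside 34.6%, and with each library rescaled on all but its 5 most abundant genes 26.6% beside 32.0%. This rescaling also raised the values themselves. With it, 12295 genes reached the mean of 1 and were tested, and the 1 added before taking logs weighed less. For 76 of the 79 members the 95% interval of the log2 change lay between -1 and 1, and the exceptions were Ndufv3, Cox7a1 and Cox6b2. The replicate groups did not overlap for 30 members, 12 higher and 18 lower, beside 47.7% of all tested genes, 34.7% higher and 13.1% lower. The number of lower members moved with the libraries used: it was 7 without WT replicate 3, 1 without WT replicate 5 and 2 without CSF1 replicate 3, and the number of higher members was 2 without CSF1 replicate 5.

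**Figure D1:**
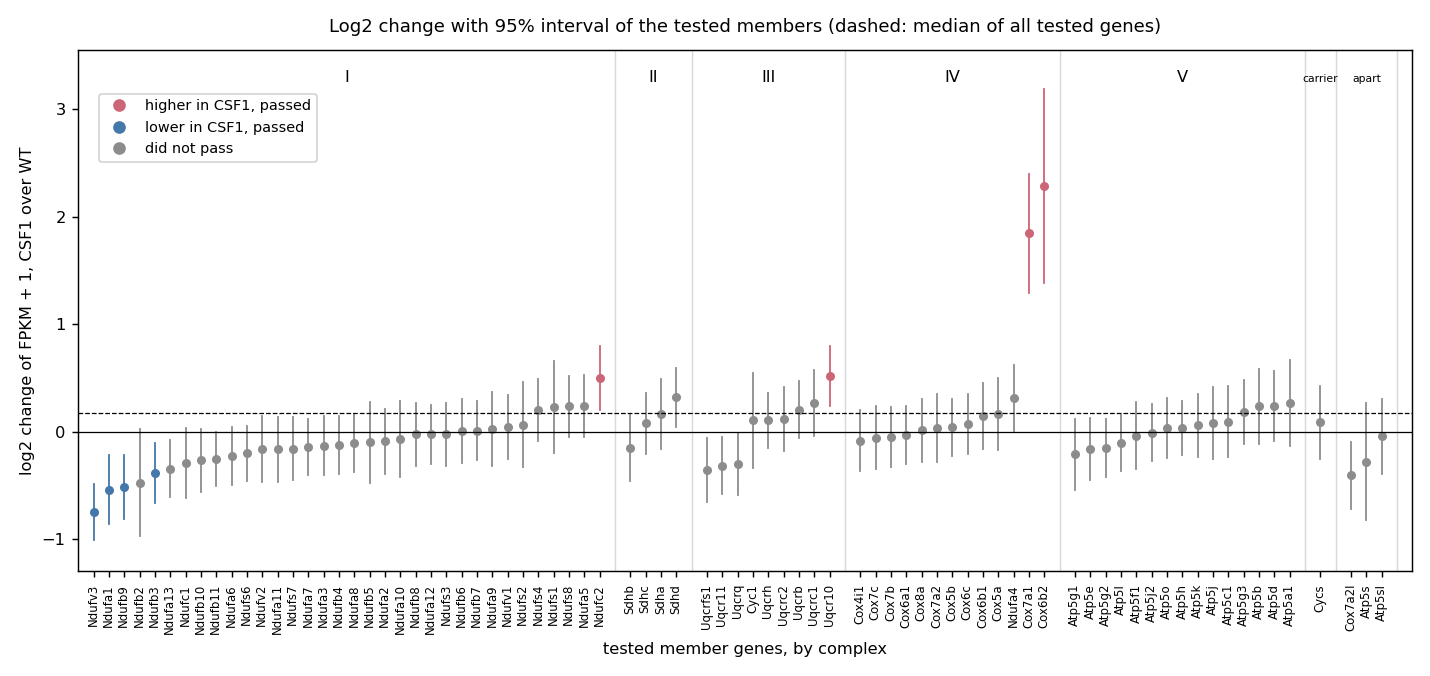
Log2 change of FPKM + 1 (vertical axis) with limma's 95% interval for each of the 79 tested members, ordered by complex along the horizontal axis, with red and blue marking the members that passed. Complex I members run from -0.75 to 0.50, and Cox7a1 and Cox6b2 stand above all other members.

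Promoter windows of 300 bases around the gene start were available from RefSeq (GRCm38.p6, the same assembly as mm10) for 70 of the 86 members. They were searched on both strands for letters bound by factors known to act on respiratory genes, and no match says only that these letters are not in the window. The palindrome of NRF1, read out in capitals in the Cox6a1 stretch, was found in 5 members (7.14%; Atp5g2, Atp5k, Cox6a1, Ndufa11 and Uqcrc1) and in 1.07% of 27025 genes. CCGGAAGT, the ETS and GABP letters, was in 5 members (7.14%; Atp5h, Cox8a, Ndufs3, Uqcr11 and Uqcrh) and in 4.31% of all genes. The YY1 motif was in 5 members and in 0.755% of all genes, and 4 of these 5 are complex I genes. The GC box GGGCGG was in 41.4% of members and 38.2% of all genes. Of the 8 members that passed, 7 had a window, and none held the NRF1, ETS or YY1 letters. The 250 bases before the start are given for the member that fell most (Ndufv3), for 2 small complex III subunits of which 1 rose (Uqcr10) and 1 did not (Uqcr11), for the muscle-type isoform gene that rose (Cox7a1) and for 1 member with the NRF1 letters (Cox6a1). Capitals mark the matches to the 4 motifs, and each sequence runs 5′ to 3′ on the gene's strand.
Ndufv3 (chr17:31519865-31520114, plus strand): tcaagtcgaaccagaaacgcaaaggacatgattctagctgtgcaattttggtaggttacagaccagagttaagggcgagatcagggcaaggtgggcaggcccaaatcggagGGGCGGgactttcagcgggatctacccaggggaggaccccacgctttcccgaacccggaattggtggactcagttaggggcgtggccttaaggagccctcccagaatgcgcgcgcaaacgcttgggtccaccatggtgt
Uqcr10 (chr11:4704345-4704594, minus strand): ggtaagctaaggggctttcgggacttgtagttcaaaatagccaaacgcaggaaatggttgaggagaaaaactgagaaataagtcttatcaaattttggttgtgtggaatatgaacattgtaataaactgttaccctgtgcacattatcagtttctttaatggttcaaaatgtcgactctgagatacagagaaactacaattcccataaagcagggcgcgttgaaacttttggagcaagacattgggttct
Uqcr11 (chr10:80406822-80407071, minus strand): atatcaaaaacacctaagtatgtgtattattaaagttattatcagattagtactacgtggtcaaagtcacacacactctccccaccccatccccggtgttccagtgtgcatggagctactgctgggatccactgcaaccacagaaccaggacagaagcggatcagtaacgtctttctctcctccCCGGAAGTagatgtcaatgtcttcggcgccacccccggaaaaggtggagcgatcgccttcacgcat
Cox7a1 (chr7:30183921-30184170, plus strand): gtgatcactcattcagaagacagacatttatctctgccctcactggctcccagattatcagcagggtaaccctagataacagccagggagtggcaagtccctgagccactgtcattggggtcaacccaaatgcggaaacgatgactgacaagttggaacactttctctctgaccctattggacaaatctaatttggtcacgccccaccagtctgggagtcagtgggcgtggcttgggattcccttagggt
Cox6a1 (chr5:115348959-115349208, minus strand): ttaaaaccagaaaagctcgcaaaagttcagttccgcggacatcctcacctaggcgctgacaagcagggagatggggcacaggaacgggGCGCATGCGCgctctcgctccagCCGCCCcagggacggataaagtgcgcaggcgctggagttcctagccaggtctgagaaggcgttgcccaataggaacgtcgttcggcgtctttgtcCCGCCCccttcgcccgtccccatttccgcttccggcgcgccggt
Ndufv3 has 1 GC box, Cox6a1 has the NRF1 palindrome and 2 GC boxes, Uqcr11 has 1 match to the ETS letters on the gene's own strand, and the Uqcr10 and Cox7a1 stretches hold none of the 4 motifs.

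Complex I had the lowest median log2 change of the 5 complexes. Its members summed to 8842 ± 489.99 FPKM in WT and 7635 ± 283 FPKM in CSF1, and its 34 tested members had a median log2 change of -0.12, beside 0.17 for all tested genes. Of these members 24 had a change below 0 and 10 above, and 12 of the 34 lay lower in every CSF1 library than in any WT library, beside 13.1% of all tested genes. Complexes II, III, IV and V had median changes of 0.12, 0.11, 0.04 and 0.04. These 4 medians turned negative under quantile normalization, under median-ratio scaling and with each library rescaled on all but its 5 most abundant genes. Under each of these scalings, as with FPKM as deposited, complex I had the lowest median of the 5 complexes.

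The share of each complex in the summed FPKM of complexes I to V is the same whatever constant each library is multiplied by. Quantile normalization changes genes of a library unequally, and shares were not computed after it. The complex I share was 38.7%, 38.0% and 37.6% in WT replicates 3, 5 and 8. It was 34.6%, 34.4% and 32.2% in the CSF1 replicates, so every CSF1 library lay below every WT library. The means were 38.1 ± 0.540% and 33.7 ± 1.34% (SD, n = 3). Each of the other complexes had a higher share in every CSF1 library than in any WT library. For complex II the mean shares were 1.78 ± 0.0769% in WT and 1.93 ± 0.0516% in CSF1. Complex III took 12.6 ± 0.405% in WT and 13.6 ± 0.191% in CSF1, and complex IV 26.7 ± 0.616% and 28.7 ± 1.14%. Shares sum to 100, so a lower share of 1 complex raises the others.

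Set against complex V within each library, complexes II, III and IV kept overlapping ratios in both groups. The ratio of complex II to complex V was 0.0857 ± 0.00367 in WT and 0.0874 ± 0.00286 in CSF1. For complex III it was 0.607 ± 0.0347 and 0.617 ± 0.00749, and for complex IV 1.28 ± 0.0498 and 1.30 ± 0.0436. The ratio of complex I to complex V was 1.92, 1.78 and 1.795 in WT and 1.60, 1.55 and 1.44 in CSF1, with no overlap. With Ndufa4 counted in complex I the ratio was 2.02 ± 0.0771 in WT and 1.75 ± 0.0802 in CSF1. Leaving out the 4 members called lower gave 1.33 ± 0.0485 and 1.20 ± 0.0526, still without overlap.

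Within complex I the summed FPKM, as deposited, was similar in both groups for the core subunits and lower in CSF1 for the accessory subunits. The 7 core subunits summed to 611 ± 65.0 FPKM in WT and 606 ± 27.5 FPKM in CSF1, and the 28 accessory subunits to 8232 ± 426 FPKM in WT and 7028 ± 256 FPKM in CSF1. The ratio of accessory to core FPKM was 14.1, 13.8 and 12.7 in WT and 11.5, 11.6 and 11.8 in CSF1. The ranges of the 2 groups did not overlap. By limma with FPKM as deposited 0 of 7 core subunits passed and 0 had an unadjusted p under 0.05, and their log2 changes ran from -0.16 to 0.24 with a median of 0.04. With quantile normalization 1 core subunit passed as lower (Ndufv2, 0.03), and with median-ratio scaling 2 did (Ndufs7, 0.0242, and Ndufv2, 0.0237), where the core median was -0.17 and the accessory median -0.34. As deposited, the 27 tested accessory subunits had a median of -0.13. The difference between core and accessory subunits was not tested, and a sum leans on its most abundant members.

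**Figure D2:**
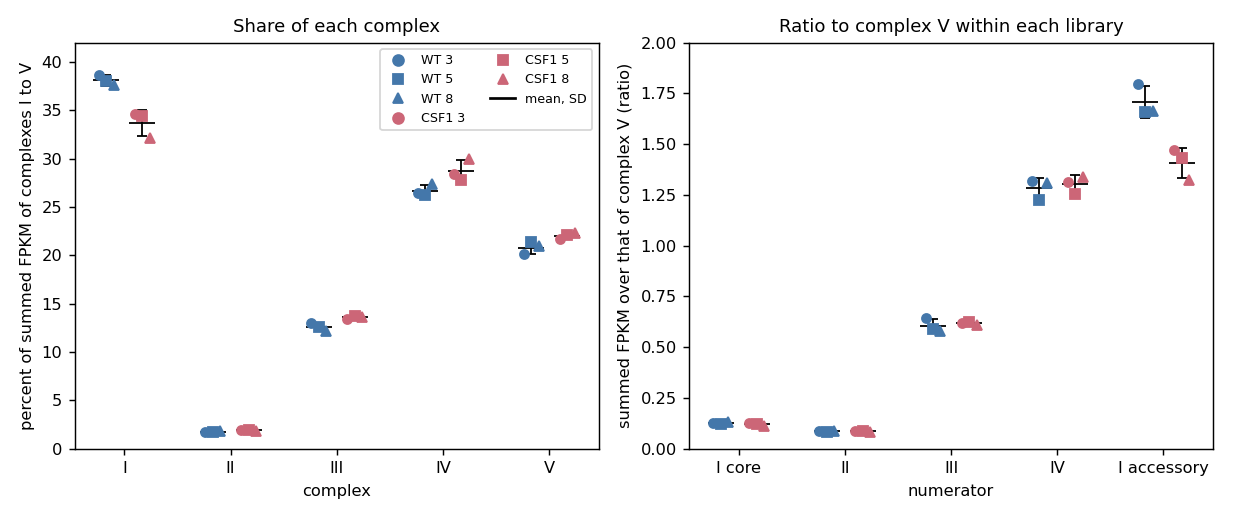
Left, the percent of the summed FPKM of complexes I to V held by each complex (vertical axis) in each of the 6 libraries; right, summed FPKM of each group of subunits divided by that of complex V in the same library. Points are libraries and black bars the mean and SD of 3; complex I goes from 38.1 ± 0.540% to 33.7 ± 1.34%, and the ratio of its accessory subunits to complex V does not overlap between the groups while that of its core subunits does.

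Ndufv3, an accessory subunit beside the NADH-binding part of the matrix arm, fell most (chromosome 17, 31520115 to 31531325, mm10; its upstream stretch is given above). It was measured at 519.9, 529 and 581 FPKM in WT against 321, 321 and 325 FPKM in CSF1. All CSF1 libraries lay near each other and below all WT libraries. The mean fell from 543 ± 32.7 to 322 ± 2.76 FPKM (log2 change -0.75 with SE 0.11, limma adjusted p = 0.0015, exact permutation p = 0.1, the smallest that 3 against 3 libraries allow). Leaving out any 1 library kept the call, with limma adjusted p-values from 0.00306 to 0.0103. Without both libraries numbered 5 it did not pass (adjusted p = 0.0504). The ratio of Ndufv3 to the core subunit gene Ndufv1, which encodes the NADH-binding protein, was 9.36 ± 0.486 in WT and 5.41 ± 0.231 in CSF1. Ndufv3 was singled out for its fall and Ndufv1 changed little (log2 change 0.04), so this ratio restates the fall of Ndufv3. All Ndufv3 FPKM came from the short transcript of 487 bases, and the long Ndufv3 transcript of 1579 bases was listed at 0 in all 6 libraries.

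Ndufa1, Ndufb9 and Ndufb3 encode accessory subunits of the membrane arm, and all 3 fell. Ndufa1 (chromosome X, 37187589 to 37191238) was measured at 1041, 1015 and 1008 FPKM in WT against 744, 782 and 593 FPKM in CSF1 (log2 change -0.54 with SE 0.14, limma adjusted p = 0.0182). CSF1 replicate 8 was the lowest library, and the groups did not overlap. Ndufb9 (chromosome 15, 58933810 to 58939489) was measured at 493, 580.2 and 600.2 FPKM in WT against 380.4, 416 and 371 FPKM in CSF1 (log2 change -0.51 with SE 0.13, limma adjusted p = 0.0161). In both genes the 3 CSF1 libraries lay below the 3 WT libraries. Ndufb3 (chromosome 1, 58586599 to 58595948) was measured at 258, 289 and 286 FPKM in WT against 229.6, 201 and 206 FPKM in CSF1 (log2 change -0.39 with SE 0.12, limma adjusted p = 0.0397), again without overlap. These calls rested on single libraries more than that of Ndufv3. Ndufa1 did not pass without WT replicate 5 (adjusted p = 0.0667) or with no expression filter (0.0568). Ndufb9 did not pass without WT replicate 5 (0.0745) or without CSF1 replicate 3 (0.057). Ndufb3 kept its call only without WT replicate 3 and reached 0.146 without WT replicate 5, 0.0877 without WT replicate 8, and 0.0577, 0.139 and 0.0808 without CSF1 replicates 3, 5 and 8.

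Ndufc2, another accessory subunit of the membrane arm, rose (chromosome 7, 97400003 to 97407800). It was measured at 206, 238 and 262 FPKM in WT against 321, 341 and 331 FPKM in CSF1 (log2 change 0.50 with SE 0.13, limma adjusted p = 0.0186), and all CSF1 libraries lay above all WT libraries. Its partner in name, Ndufc1, had 228 ± 33.8 FPKM in WT and 185 ± 7.45 FPKM in CSF1 (limma adjusted p = 0.155). Ndufc1 passed as lower under the other scalings, at 0.0176, 0.0111 and 0.0178 for quantile, median-ratio and rescaled values. The ratio of Ndufc2 to Ndufc1, chosen after the values were seen, was 1.03 ± 0.0542 in WT and 1.79 ± 0.116 in CSF1, without overlap. The call of Ndufc2 was lost without WT replicate 5 (adjusted p = 0.0648), without CSF1 replicate 5 (0.0696), with median-ratio scaling (0.0565) and with rescaling outside the 5 most abundant genes (0.0591).

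The remaining complex I genes spanned a wide range of levels. Ndufa3 was the most abundant, with 1058 ± 59.8 FPKM in WT and 967 ± 56.1 FPKM in CSF1 (log2 change -0.13, limma adjusted p = 0.457). Ndufs1, the largest core protein with several iron-sulfur clusters, was the lowest above 0, with 19.0 ± 3.30 FPKM in WT and 22.5 ± 4.33 FPKM in CSF1. Ndufb6 had the smallest change (0.00, limma adjusted p = 0.987). Ndufa13, which is also known as the cell death regulator GRIM-19, was measured at 174, 182 and 199 FPKM in WT against 147, 147 and 141 FPKM in CSF1 and missed the threshold (limma adjusted p = 0.0507). It passed as lower under the other scalings, at 0.00633, 0.00301 and 0.0058 for quantile, median-ratio and rescaled values. Its locus overlaps the listed gene Tssk6. Ndufb2 was at 189 FPKM in CSF1 replicate 8 and at 331 and 337 FPKM in the other CSF1 libraries, so its spread was wide. Ndufa13 and Ndufb2 were chosen after their values were seen.

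Ndufs5, an accessory subunit gene, was listed at 0 in all 6 libraries, while an entry at the same place carried FPKM. The listed noncoding gene BC002163 has 2 copies in the tables, 1 on chromosome 16 (42955580 to 42956079) and 1 inside the Ndufs5 locus on chromosome 4 (123712710 to 123718161, where Ndufs5 ends at 123718186). The copy inside the Ndufs5 locus had FPKM of 141, 154 and 160.2 in WT and 124, 120.3 and 124 in CSF1. The copy on chromosome 16 had FPKM of 166, 181 and 205 in WT and 152, 144 and 150.4 in CSF1. The sum of both copies missed the threshold (336 ± 29.4 FPKM in WT and 272 ± 6.37 FPKM in CSF1, adjusted p by limma = 0.0885), and it passed with quantile normalization (0.01). With another entry over the same locus, the 0 of Ndufs5 cannot be read as a measure of its expression.

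**Figure D3:**
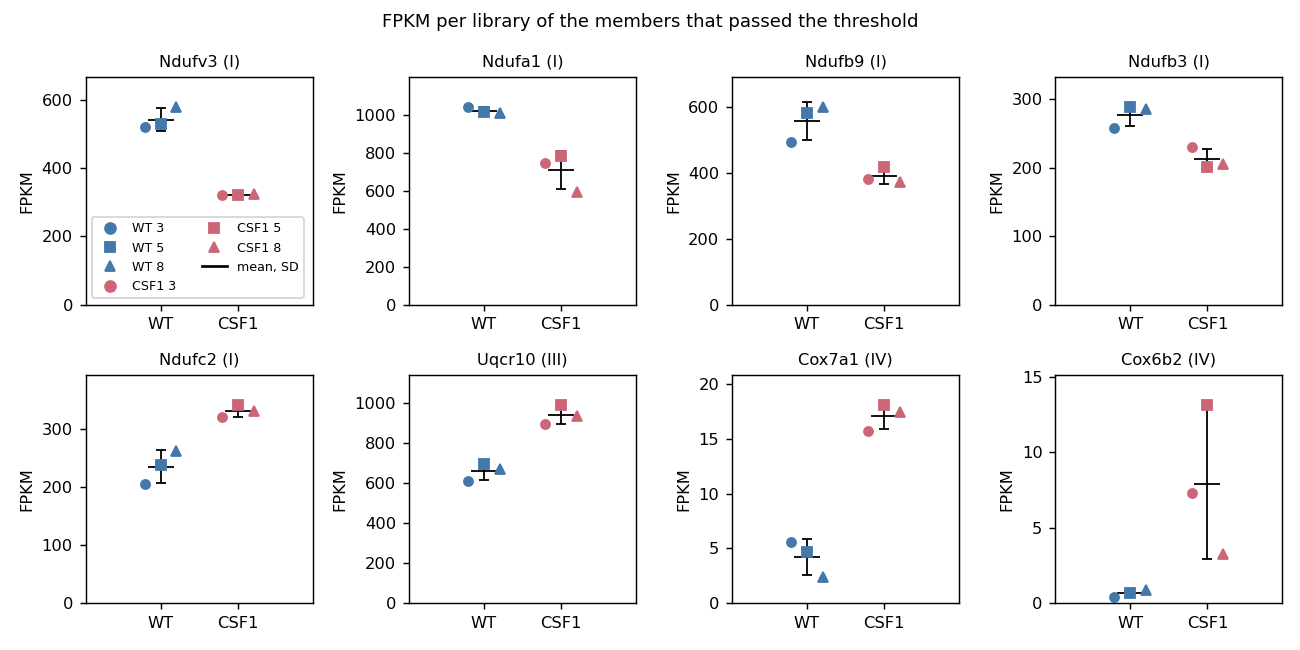
FPKM (vertical axes, each from 0) of the 8 members that passed the threshold, in 3 WT and 3 CSF1 libraries, with the mean and SD in black and the complex in brackets. The groups do not overlap for any of the 8, of which Cox6b2 was tested only through its level in CSF1. Ndufv3 lies between 321 and 325 FPKM in CSF1, and Cox6b2 varies between 3.26 and 13.1 there.

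Complex II, which is also the succinate dehydrogenase of the citric acid cycle, had no member past the threshold by limma, and 1 of its 4 genes (Sdhd) had an unadjusted p under 0.05. The flavoprotein gene Sdha was measured at 78.7, 88.8 and 107 FPKM in WT against 100.5, 107 and 97.7 FPKM in CSF1 (log2 change 0.16, limma adjusted p = 0.432). Sdhb, the iron-sulfur subunit, had a change of -0.15 (0.425), and the membrane anchors Sdhc and Sdhd had changes of 0.08 (0.678) and 0.32 (0.0783). Sdhd was measured at 85.6, 98.1 and 98.0 FPKM in WT against 117, 123 and 111 FPKM in CSF1, and all its CSF1 libraries lay above all WT libraries. It passed with array weights (adjusted p = 0.0446), and Sdhb passed as lower with quantile normalization (0.0204), after median-ratio scaling (0.031) and with rescaling outside the 5 most abundant genes (0.0363).

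In complex III 1 of 9 members passed with FPKM as deposited, the small subunit gene Uqcr10, which rose (chromosome 11, 4701968 to 4704344). Uqcr10 was measured at 609.6, 694 and 671 FPKM in WT against 895, 989.6 and 936 FPKM in CSF1 (log2 change 0.52 with SE 0.12, limma adjusted p = 0.0117). It was also the most abundant gene of this complex. Uqcrh, Uqcrb and Uqcrc1 also lay higher in every CSF1 library than in any WT library, with log2 changes of 0.11 (limma adjusted p = 0.511), 0.20 (0.21) and 0.26 (0.173). The other small subunit genes Uqcr11 and Uqcrq had lower values in every CSF1 library than in any WT library, with log2 changes of -0.32 (limma adjusted p = 0.0663) and -0.30 (0.0992). Uqcr11 was measured at 435, 405 and 432 FPKM in WT against 352, 347 and 321 FPKM in CSF1. The ratio of Uqcr10 to Uqcr11, chosen after the values were seen, went from 1.56 ± 0.155 to 2.77 ± 0.201. Cyc1, which encodes cytochrome c1 and had the smallest change of the complex, showed 0.10 (0.719), and the Rieske iron-sulfur protein gene Uqcrfs1, also lower without overlap, -0.36 (0.0682). Under each of the 3 other scalings 3 of the 9 were called lower and no other member passed. Uqcr11 then had limma adjusted p-values of 0.0293, 0.00728 and 0.0142 (quantile, median-ratio and rescaled), Uqcrq 0.0156, 0.0159 and 0.00812 and Uqcrfs1 0.00643, 0.00349 and 0.00648. The call of Uqcr10 was lost without CSF1 replicate 5 (adjusted p = 0.0593), with quantile normalization (0.0679), after median-ratio scaling (0.0557) and with rescaling outside the 5 most abundant genes (0.0601).

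The usual subunits of complex IV did not pass, while 2 alternative isoforms rose from low levels, Cox6b2 among them tested only through its level in CSF1. Changes of the 11 usual subunit genes ran from -0.09 (Cox4i1) to 0.31 (Ndufa4), and by limma 0 passed and 1 had an unadjusted p under 0.05. Cox4i1 had the highest mean over all 6 libraries, with 1104 ± 100.1 FPKM in WT and 1037 ± 18.3 FPKM in CSF1. Cox8a had the smallest change, with 894 ± 69.2 FPKM in WT and 903 ± 71.4 FPKM in CSF1 (log2 change 0.01). Both transcripts of Cox4i1 were present, the 669-base one at 429.9, 543 and 523 FPKM in WT against 468, 531 and 481 FPKM in CSF1 and the 744-base one at 588, 538 and 691 FPKM in WT against 552, 525 and 555 FPKM in CSF1.

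Cox7a1 encodes the isoform of subunit 7A that is typical of heart, skeletal muscle and brown fat (chromosome 7, 30184171 to 30186030). It was measured at 5.56, 4.69 and 2.41 FPKM in WT against 15.7, 18.1 and 17.4 FPKM in CSF1 (log2 change 1.84 with SE 0.24, limma adjusted p = 0.000728). Every CSF1 library lay above every WT library, and leaving out any 1 library kept the call. The partner gene Cox7a2 had 280.4 ± 27.8 FPKM in WT and 287 ± 31.9 FPKM in CSF1 (limma adjusted p = 0.884). Cox7a1 made up 2.09%, 1.72% and 0.768% of the summed FPKM of both genes in WT and 5.71%, 6.09% and 5.14% in CSF1. This share was 3.70 times as high in CSF1, and an exact two-sided permutation test gave p = 0.1 (0.15 adjusted over the 9 isoform shares compared). The fibroblast and smooth muscle markers Des (tested only through its level in CSF1) and Acta2 were higher beside it, with 0.294 ± 0.138 against 9.40 ± 4.29 FPKM for Des and 4.37 ± 1.46 against 28.9 ± 5.03 FPKM for Acta2, and their part in the change of Cox7a1 was not tested. The muscle isoform genes Cox6a2 and Cox8b were low, with no library above 1.07 FPKM. Cox6a2 was listed at 0 for every WT library. Its CSF1 libraries gave 0.216, 0.0449 and 0.515 FPKM, so the groups did not overlap. Cox8b overlapped between the groups. Both genes averaged under 1 FPKM and were not tested.

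Cox6b2 is known as the testis isoform of subunit 6B (chromosome 7, 4751792 to 4753094). It was measured at 0.376, 0.674 and 0.883 FPKM in WT against 7.31, 13.1 and 3.26 FPKM in CSF1 (log2 change 2.28 with SE 0.39, limma adjusted p = 0.00278), and the groups did not overlap although the CSF1 libraries differed widely. Its share beside Cox6b1 was 0.0485%, 0.0777% and 0.0999% in WT and 0.817%, 1.495% and 0.311% in CSF1 (exact two-sided permutation p = 0.1). Cox6b1 itself had 842 ± 58.7 FPKM in WT and 932 ± 97.2 FPKM in CSF1 (limma adjusted p = 0.447). The FPKM of Cox6b2 was spread over 5 of its 6 listed transcripts, with a different mix in each CSF1 library. Cox7a1 and Cox6b2 kept their calls under the alternatives tried, with adjusted p-values up to 0.01 and 0.0374, except that Cox6b2 was not tested where a mean of 5 FPKM was required. Cox6b2 was below 1 FPKM in every WT library and entered the test only through its level in CSF1, so it had to differ.

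The other isoform pairs gave little signal. Cox6a1 and Cox7b, the usual partners, had log2 changes of -0.03 and -0.05 (limma adjusted p = 0.878 and 0.793). Cox4i2, an isoform linked to low oxygen, was at 0, 0.167 and 0 FPKM in WT and 0.187, 0.389 and 0 FPKM in CSF1. Cox7b2 was listed at 0 in all 6 libraries, and Cox8c was above 0 in WT replicate 8 alone (0.281 FPKM). With Ndufs5 and Ndufa4l2, which were both listed at 0, these 5 complex IV isoforms make up the 7 members that were not tested.

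**Figure D4:**
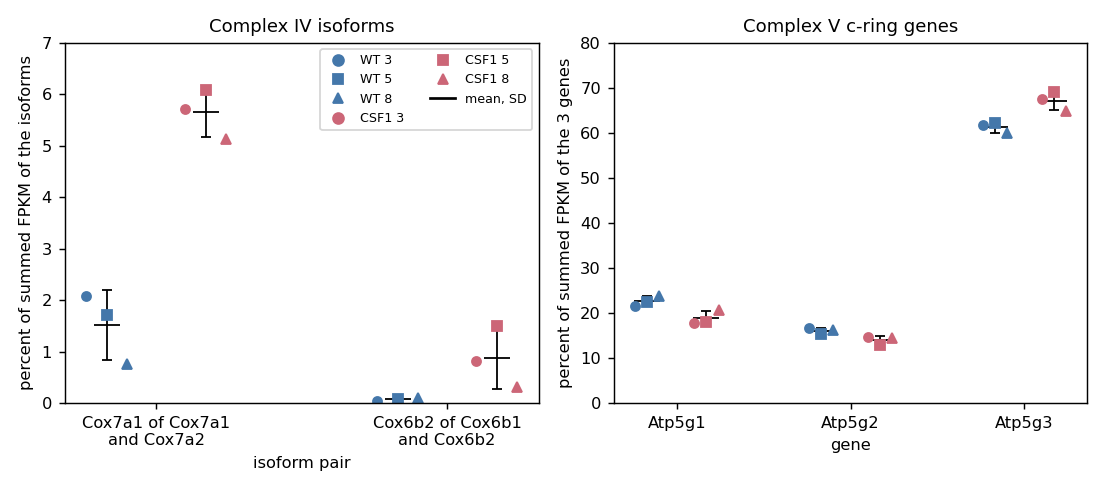
Percent of the summed FPKM of the genes encoding 1 subunit (vertical axes) held by each isoform gene, in 3 WT and 3 CSF1 libraries, with mean and SD. Cox7a1 lies between 0.768% and 2.09% in WT and between 5.14% and 6.09% in CSF1, and Atp5g3 is higher in each CSF1 library.

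Complex V, ATP synthase, had no member past the threshold among 15 tested, and none had an unadjusted p under 0.05. Its members summed to 4837 ± 449 FPKM in WT and 4994 ± 179 FPKM in CSF1. The 5 genes of the catalytic F1 part had a median log2 change of 0.24 and the 10 genes of the membrane part and stalk 0.01. Atp5b, the catalytic beta subunit, was measured at 425, 570.4 and 589 FPKM in WT against 599, 642 and 607 FPKM in CSF1 (log2 change 0.24, limma adjusted p = 0.276). Atp5j, which encodes coupling factor 6 of the stalk, was the most abundant, with 671 ± 104 FPKM in WT and 704 ± 24.8 FPKM in CSF1 (0.712). Atp5j2 had the smallest change (-0.01).

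The proton-carrying c ring of ATP synthase is built from 1 protein encoded by Atp5g1, Atp5g2 and Atp5g3, and the mix of these genes differed between the groups. Atp5g3 held 61.8%, 62.1% and 59.9% of their summed FPKM in WT and 67.5%, 69.0% and 64.8% in CSF1. Atp5g1 held 22.7 ± 1.17% in WT and 18.9 ± 1.66% in CSF1, and Atp5g2 16.1 ± 0.599% and 14.01 ± 0.954%. None of the 3 shares overlapped between the groups, and each gave an exact two-sided permutation p of 0.1 (0.15 adjusted over the 9 shares). The shares of the 3 genes sum to 100 and are not independent. As single genes, Atp5g1, Atp5g2 and Atp5g3 had log2 changes of -0.21, -0.15 and 0.18 and did not pass with FPKM as deposited. Atp5g1 and Atp5g2 passed as lower with quantile normalization (adjusted p = 0.0203 and 0.0276), after median-ratio scaling (0.0262 and 0.0229) and with rescaling outside the 5 most abundant genes (0.0221 and 0.0335). The second transcript of Atp5g1 (798 bases) was at 19.8, 24.1 and 30.1 FPKM in WT against 0, 0 and 18.8 FPKM in CSF1.

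Cycs and the genes kept apart did not pass with FPKM as deposited. Cycs, which encodes the somatic cytochrome c that carries electrons to complex IV, was measured at 54.4, 69.97 and 65.2 FPKM in WT against 58.5, 71.3 and 71.4 FPKM in CSF1 (limma adjusted p = 0.699). Cox7a2l encodes a factor that joins complexes III and IV into supercomplexes, of which C57BL/6 mice are known to carry a short form. It was measured at 111, 127 and 103 FPKM in WT against 85.6, 93.8 and 76.8 FPKM in CSF1. Every CSF1 library lay below every WT library (log2 change -0.41, limma adjusted p = 0.0505), and Cox7a2l passed with the replicate block (adjusted p = 0.027), under which 4 members were higher and 5 lower beside 26.3% and 8.13% of all tested genes. It also passed with quantile normalization (0.0138), median-ratio scaling (0.00754), rescaling outside the 5 most abundant genes (0.0176), a robust trend (0.0449) and array weights (0.0194). Atp5s and Atp5sl had 12.5 ± 0.676 FPKM in WT and 10.6 ± 4.11 FPKM in CSF1 for the first and 9.31 ± 0.697 FPKM in WT and 9.02 ± 1.12 FPKM in CSF1 for the second (limma adjusted p = 0.409 and 0.851).

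How many members were called lower depended on the scaling. With quantile normalization 3 of 79 members were higher and 19 lower, where 37.0% of all tested genes were called, 15.5% higher and 21.6% lower. With median-ratio scaling 2 were higher and 26 lower (background 19.3% and 15.3%), and with rescaling outside the 5 most abundant genes 2 were higher and 19 lower (background 20.0% and 12.0%). Complex I held 12, 18 and 11 of these lower members. The median of all tested genes itself moved from 0.17 to -0.16, -0.01 and 0.03 under the 3 scalings. The median of complex I lay below it by 0.29 with FPKM as deposited and by 0.12, 0.32 and 0.34 under the scalings. With FPKM as deposited and under these 3 scalings, medians of complexes II to V lay below that of all genes except with quantile normalization, where they lay 0.02 to 0.08 above it.

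**Figure D5:**
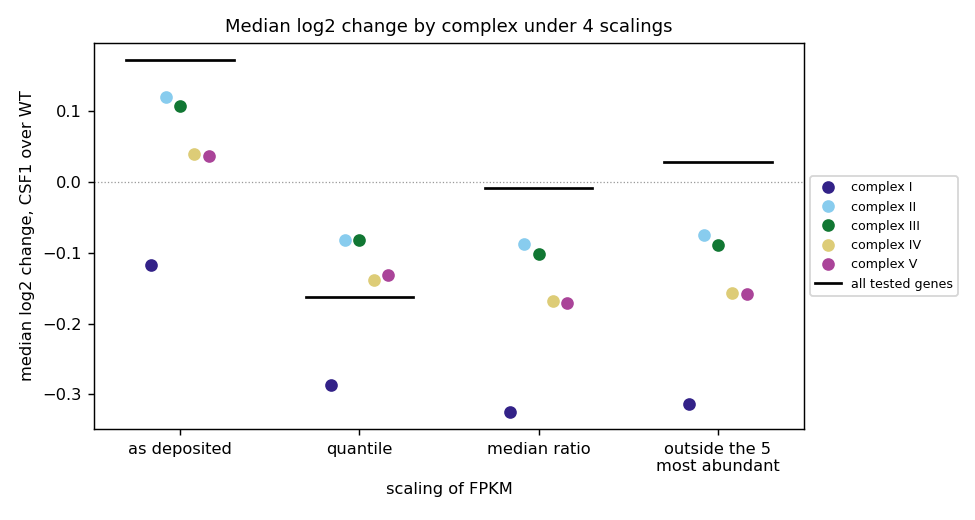
Median log2 change of the tested members of each complex (points) and of all tested genes (black lines) under 4 scalings of FPKM; the vertical axis is the change of CSF1 over WT. Complex I is lowest in each column, at -0.12, -0.29, -0.32 and -0.31, while the sign of the other complexes differs between the first column and the rest.

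Genes that build or feed the complexes were read from lists, with the same test, beside 24.9% higher and 7.47% lower of all tested genes (15.5% and 21.6% with quantile normalization). Of 14 tested complex I assembly genes, 2 were higher and 12 did not pass. Acad9, an assembly factor and acyl-CoA dehydrogenase, rose from 5.17 ± 1.16 to 11.1 ± 2.15 FPKM (log2 change 0.98 with SE 0.20, limma adjusted p = 0.00706), and Nubpl, which delivers iron-sulfur clusters, was the other. With quantile normalization 1 of the 14 was higher and 4 lower. Of 32 tested assembly genes of complexes II to V, 1 was higher, 3 lower and 28 did not pass. Sdhaf3, an assembly factor of complex II, fell from 12.3 ± 1.73 to 7.20 ± 0.846 FPKM (log2 change -0.69 with SE 0.17, limma adjusted p = 0.0132), and Cox11, which inserts copper into complex IV, rose from 4.68 ± 0.332 to 7.83 ± 0.274 FPKM (limma adjusted p = 0.0114). Coa3 and Cox16, both of complex IV assembly, were the other lower genes, Coa3 falling from 301 ± 33.4 to 193 ± 27.5 FPKM. With quantile normalization 14 of the 32 were called lower, and with median-ratio scaling 9.

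Subunits and partners that the name pattern misses gave 3 higher genes and 8 that did not pass. Atpif1, whose protein inhibits ATP synthase when it runs backwards, rose from 88.7 ± 6.93 to 156 ± 15.1 FPKM (log2 change 0.81 with SE 0.13, limma adjusted p = 0.00198), and it also passed with quantile normalization (adjusted p = 0.00277) and with median-ratio scaling (0.006). Gpd2 and Etfa, which feed electrons to ubiquinone, were the others, Gpd2 rising from 5.61 ± 0.489 to 10.4 ± 1.30 FPKM. With quantile normalization 1 was higher and 3 lower (Higd1a, Higd2a and Etfb), and with median-ratio scaling 2 were higher and 3 lower. The complex I subunit gene Ndufab1 had 16.4 ± 1.67 FPKM in WT and 16.3 ± 2.22 FPKM in CSF1 (adjusted p by limma = 0.95). Of 14 genes of the tricarboxylic acid cycle, 1 was higher and 13 did not pass. That gene was Idh3a, a subunit of isocitrate dehydrogenase, which rose from 17.3 ± 4.37 to 31.0 ± 4.84 FPKM (log2 change 0.82 with SE 0.21, limma adjusted p = 0.0159). With quantile normalization 1 of the 14 was higher and 1 lower. Of 12 tested genes of ubiquinone synthesis, 2 were higher and 1 lower, with Coq10b the largest rise (log2 change 0.69) and Adck3 the fall (-0.79), and with quantile normalization 1 was higher and 4 lower.

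Regulators of mitochondrial gene expression had 6 of 14 tested genes higher and 8 that did not pass, beside 24.9% higher of all tested genes. Gabpb1, a subunit of the ETS factor GABP, rose from 8.32 ± 0.675 to 18.5 ± 4.03 FPKM (log2 change 1.05 with SE 0.18, limma adjusted p = 0.00263) and passed with quantile normalization too (adjusted p = 0.0163). Nrf1 rose from 3.54 ± 0.611 to 6.71 ± 0.940 FPKM (log2 change 0.77 with SE 0.18, limma adjusted p = 0.0124), and Tfam, which packages mitochondrial DNA and starts its transcription, from 4.02 ± 0.460 to 6.51 ± 0.515 FPKM (log2 change 0.58 with SE 0.16, limma adjusted p = 0.0246). Neither Nrf1 (0.142) nor Tfam (0.298) passed with quantile normalization, under which 1 regulator was higher and 2 lower. Gabpa had the largest fitted change (2.10), but it was listed at 0 in WT replicates 5 and 8 and at 6.43 FPKM in WT replicate 3, beside 7.21 to 7.61 FPKM in CSF1, and its locus overlaps that of Atp5j. Ppargc1a, the coactivator that drives mitochondrial biogenesis, had 2.53 ± 0.625 FPKM in WT and 2.33 ± 0.557 FPKM in CSF1 (adjusted p by limma = 0.817). Of 13 genes of the outer membrane and protein import, 3 were higher and 10 did not pass, and all 3 are mitochondrial chaperones, 1 of which passed with quantile normalization, with Hspd1 rising from 59.2 ± 3.93 to 109 ± 10.1 FPKM (log2 change 0.87 with SE 0.13, limma adjusted p = 0.0013).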

How the data were processed

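RNA of 3 WT and 3 CSF1 samples of sorted luminal cells was sequenced. Per the labels' protocols, cDNA came from the SMART-Seq v4 kit with random and oligo-dT priming, which does not mark strand. Per the submitters' processing notes, bcl2fastq 1.8.3, TopHat and Cufflinks were used with mm10. The authors deposited FPKM per RefSeq transcript and the bounds of its confidence interval, also FPKM. Depth is known only from the deposited coverage, a signal that was 2.72 to 3.50 per FPKM in WT and 4.17 to 5.01 in CSF1, so CSF1 libraries were deeper, and fragment totals are not given.

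FPKM was summed over the transcripts of a gene, for all 24346 symbols. The 9 genes with a failed or skipped status in any library were left out, and no member was among them. Genes that averaged 1 FPKM or more over the 6 libraries were tested with limma 3.58.1 in R 4.3.3 (the data.table package was version 1.17.8) on log2(FPKM + 1), with a variance trend, two-sided, with Benjamini-Hochberg adjustment over all 10951 tested genes and a threshold of 0.05. Errors are SD over 3 libraries, or SE for log2 changes. Fold changes on this scale understate changes of low genes. The fit was tested on simulated data with independent noise and few changed genes. That simulation cannot speak to the effects of scaling or of a pairing of libraries. Reads shared with near-identical copies were not followed, and many of these genes have processed pseudogenes. The loci of 15 members overlap that of another listed gene.

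Same-numbered libraries deviated together weakly (correlations of their deviations from the group means of 0.26, 0.11 and 0.18 for numbers 3, 5 and 8, over tested genes). The labels do not say what the numbers stand for, so a pairing of the samples is possible but not given. The main fit left the numbers out, and the fit with a replicate block, which pairs same-numbered libraries, was an alternative. Other alternatives changed the scaling, pseudocount, filter, variance model and library weights, and left out libraries. Members and lists were chosen with earlier results of these data known. The members named are those past the threshold, the most abundant and the least changed of each complex, all of complex II, Cycs, isoform pairs, genes kept apart and untested members, and the largest rise and fall of each list. Sums, shares and ratios over complexes carry no test.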

Additional observations from a re-analysis of the deposited data

How the results depend on the processing

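Higher genes numbered 2731 as deposited, 1694 with quantile normalization and 1761 with a mean of at least 5 FPKM. Lower genes numbered 818 as deposited. Quantile normalization gave 2362 of them, median-ratio scaling 1675 and rescaling outside the 5 most abundant genes 1476. As deposited, 77.0% of called genes were higher, and under these scalings 41.8%, 55.7% and 62.5%. Higher members went from 4 to 2 under both median-ratio scaling and rescaling. Lower members went from 4 to 19 (quantile), 26 (median-ratio), 19 (rescaled) and 8 (array weights). Median log2 changes with quantile normalization were -0.29, -0.083 and -0.083 for complexes I, II and III. With median-ratio scaling they were -0.32, -0.088, -0.10, -0.17 and -0.17 for complexes I to V, and with rescaling -0.31, -0.075, -0.089, -0.16 and -0.16. The log2 ratios of summed FPKM of complexes I to V were -0.21, 0.07, 0.08, 0.07 and 0.05 as deposited. They became -0.42, -0.13, -0.13, -0.14 and -0.16 with median-ratio scaling and -0.40, -0.12, -0.12, -0.12 and -0.15 with rescaling. The cause of these shifts was not tested.

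Leaving out 1 library gave 2053 to 2489 higher genes and 478 (without WT replicate 5) to 850 lower genes (526 without WT replicate 8), with 2 to 4 higher and 1 to 7 lower members. Leaving out both libraries of number 3, 5 or 8 gave 1921, 1519 and 2414 higher and 593, 341 and 485 lower genes, with 2, 2 and 4 higher and 2, 0 and 2 lower members. Without number 5, the 0 lower members by limma adjusted p stand beside 3 at an unadjusted p under 0.05. Median changes over these fits ran from -0.16 to -0.042 for complex I, 0.049 to 0.22 for II, 0.018 to 0.17 for III, -0.0073 to 0.11 for IV and -0.031 to 0.068 for V. These fits hold fewer samples. The replicate block gave 2883 higher and 890 lower genes, and 4 higher and 5 lower members; among the members named in the report it changed the call of Cox7a2l (adjusted p = 0.027) and no other. Among the genes of other lists it added Sdhaf1 (0.0287), Cmc2 (0.036), Higd1a (0.0319), Vdac2 (0.0311), Krt8 (0.0452) and the globin genes Hba-a1, Hbb-b1 and Hbb-b2. Ndufa3 passed as lower with median-ratio scaling (adjusted p = 0.038). With Ndufa4 counted in complex I, the ratio of complex I to complex V still did not overlap between the groups (1.96 to 2.10 in WT and 1.66 to 1.82 in CSF1). Depth was unknown beyond the coverage constant, and values near 0 FPKM are the least certain.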

Other observations

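Some further values lie outside the comparisons of complexes. Among members with several listed transcripts, the noncoding 696-base transcript of Ndufa7 was at 107, 114 and 109 FPKM in WT against 71.3, 84.1 and 68.3 FPKM in CSF1, while its 527-base coding transcript was at 476, 435 and 481 FPKM in WT against 464, 437 and 435 FPKM in CSF1. For Atp5j, all FPKM came from the 489-base and 643-base transcripts, and the other 3 listed transcripts were at 0 in all 6 libraries. The 3 assembly genes Surf1, Sco2 and Pet117 were listed at 0 in all 6 libraries, and such a 0 can be a failed estimate. The longest listed transcript of a member had a median length of 708 bases, and over the 79 tested members it had a Spearman rho of 0.14 with the log2 change, given as a description across genes that share the same libraries.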
